A study of Mus musculus with 12 samples.

Results

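The 9 genes followed were sensors, factors and proteases of the unfolded protein response (UPR) in KPC cells, a mouse pancreatic ductal adenocarcinoma (PDAC) line, before and after cisplatin (Cis), a platinum drug that damages DNA. They were the 3 endoplasmic reticulum (ER) stress sensors Ern1 (IRE1α), Eif2ak3 (PERK) and Atf6, the IRE1α substrate Xbp1, the Atf6 paralog Atf6b, the ER-anchored factors Creb3 and Creb3l2, and the processing enzymes Mbtps1 (site-1 protease) and Mbtps2 (site-2 protease). Members were taken by gene symbol from the deposited tables, and made up 9 of the 15803 transcripts with a read in at least 1 library. All 9 had reads in all 12 libraries and passed the filter on low values in both assays.

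Ribosome-protected footprints and total mRNA (RNA) were each sequenced in 3 groups of 2 libraries, which were cells without treatment (PBS) and cells given Cis for 6 h or for 21 h. The Cis dose was 20 μM according to the methods of the study, and the time spent in PBS is not labelled. The line came from a tumor that arose in mice in which Pdx1-Cre, active in the pancreatic lineage, switched on KrasLSL-G12D and Trp53LSL-R172H, so every group carried both mutations. Labels do not say whether the 2 libraries of a group came from separate cultures, so the p-values measure the spread between libraries, which may be technical.

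The UPR starts when unfolded proteins load the ER. IRE1α cuts Xbp1 mRNA so that its translation yields the active factor XBP1s, PERK phosphorylates eIF2α, which lowers protein synthesis while favoring ATF4, and ATF6 travels to the Golgi, where site-1 and site-2 proteases release its transcription factor domain. CREB3 and CREB3L2 are held in the ER membrane and are released by the same proteases. In secretory tissue such as the pancreas, these arms adjust chaperones, export and protein synthesis to the load of the ER. Ribosome profiling was used in the study in asking whether Cis lowers IRE1α through its translation.

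Footprint libraries held 3375480 to 5204127 reads and RNA libraries 1985344 to 2901692, of which 51.8% to 56.6% fell on only 3 transcripts (Lars2, Tmem38b and Mettl26). The 9 genes together received 777 to 1499 footprint reads and 408 to 705 RNA reads per library, so single RNA values rest on few reads. Of the epithelial markers, Krt8, Krt18, Krt19 and Cdh1 were abundant, Krt7 and Sox9 were lower, and Epcam had a median footprint value of 1.02 RPKM (reads per kilobase, relative to the mapped reads of the library) and was at 0 in 3 of the 6 RNA libraries. Vim, a mesenchymal marker, had a median of 3610 RPKM in footprints. Acinar, fibroblast, immune and endothelial markers summed to at most 7.59, 3.41, 5.40 and 0.666 RPKM in any footprint library, against at least 6728 RPKM for the 7 ductal markers, and Cpa1, Ptf1a and Cd3e were at 0 in all 12. The immune sum, carried by Cd68, was higher in RNA at 21 h (2.13 to 4.27 RPKM) than with PBS (0.403 to 1.03 RPKM). In footprints, the ductal sum was 9113 to 9794 RPKM with PBS and 6728 to 6861 RPKM at 21 h, the sum of 4 mesenchymal markers was 3694 to 3700 RPKM and 2920 to 2989 RPKM, and the acinar sum was 4.29 to 4.68 RPKM and 6.10 to 7.59 RPKM. The part of these shifts in the results was not tested. In bulk libraries, fewer cells with a transcript and less of it per cell cannot be told apart.

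To show the regulatory sequence upstream of the kinase sensors, and of related factors whose footprints moved in opposite directions, the promoter windows of Ern1 and Eif2ak3 and of Creb3 and Creb3l2 are given. Of the 9 genes, 8 matched the RefSeq promoter table by symbol (GRCm38.p6, 300 bases each, most of them before the start site), and Atf6 did not. Each is written 5′ to 3′ along the gene. Capitals mark, on either strand, the pieces CCAAT (which nuclear factor Y binds), CCACG (the rest of the ER stress element) and TGACG (a piece of the cyclic AMP element). The windows are chr11:106487747-106488046 (minus strand) for Ern1, chr6:70844265-70844564 (plus) for Eif2ak3, chr4:43562408-43562707 (plus) for Creb3 and chr6:37442099-37442398 (minus) for Creb3l2.
Ern1: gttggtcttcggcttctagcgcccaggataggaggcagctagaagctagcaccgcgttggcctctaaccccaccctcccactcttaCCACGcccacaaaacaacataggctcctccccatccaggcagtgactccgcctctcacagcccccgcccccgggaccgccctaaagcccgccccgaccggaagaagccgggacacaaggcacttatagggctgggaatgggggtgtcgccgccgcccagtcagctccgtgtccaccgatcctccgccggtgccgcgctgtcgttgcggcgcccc
Eif2ak3: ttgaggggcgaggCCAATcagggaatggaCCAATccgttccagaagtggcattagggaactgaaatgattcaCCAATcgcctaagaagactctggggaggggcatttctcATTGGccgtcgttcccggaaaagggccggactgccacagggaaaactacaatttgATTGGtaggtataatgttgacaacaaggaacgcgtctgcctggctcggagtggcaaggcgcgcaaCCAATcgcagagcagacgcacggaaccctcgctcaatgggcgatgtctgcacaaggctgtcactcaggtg
Creb3: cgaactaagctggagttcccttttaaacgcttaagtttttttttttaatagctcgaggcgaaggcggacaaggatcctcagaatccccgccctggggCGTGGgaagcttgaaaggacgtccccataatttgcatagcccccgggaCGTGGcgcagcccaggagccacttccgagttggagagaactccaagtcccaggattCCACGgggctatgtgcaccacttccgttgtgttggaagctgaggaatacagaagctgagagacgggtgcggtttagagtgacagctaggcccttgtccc
Creb3l2: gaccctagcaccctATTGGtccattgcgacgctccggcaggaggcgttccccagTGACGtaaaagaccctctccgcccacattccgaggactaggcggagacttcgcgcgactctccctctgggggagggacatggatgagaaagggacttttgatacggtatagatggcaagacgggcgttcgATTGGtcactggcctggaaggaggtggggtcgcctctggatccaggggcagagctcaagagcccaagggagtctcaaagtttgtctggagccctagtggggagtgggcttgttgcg
Ern1 held 1 CCACG, Eif2ak3 held 6 CCAAT, Creb3 held 3 CCACG, and Creb3l2 held 2 CCAAT with 1 TGACG. Over the 8 windows, CCAAT was found in 3, CCACG was found in 3 and TGACG was found in 2, and these letters occur in 37.4%, 32.8% and 20.8% of the 32851 windows in the table. The complete ER stress element (CCAAT followed by 9 bases, then CCACG) was in none of the 8 and in 0.119% of all windows. TGACGTG, which contains TGACG and is the core bound by XBP1 and ATF6, was in none of the 8 and in 2.01% of all windows. TGATGNAA, a short form of the element bound by ATF4 with its partners, was in none of the 8 and in 3.97% of all windows. A match says only that the letters are present in the window.

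With PBS, the 9 genes spanned from 4.30 ± 0.0939 RPKM (Eif2ak3) to 28.9 ± 0.0584 RPKM (Xbp1) in footprints (mean ± SD, n = 2 libraries here and below), both per length of the coding sequence. Atf6 (28.0 ± 0.65) and Creb3 (26.6 ± 3.61) followed Xbp1, and their libraries overlapped. Atf6b (17.8 ± 3.20), Creb3l2 (15.6 ± 1.85) and Mbtps1 (14.4 ± 1.03) formed the middle, where each overlapped its neighbor. Mbtps2 (13.1 ± 0.554), Ern1 (9.38 ± 1.47) and Eif2ak3 were each separate from the gene above. Among the sensors, the order was thus Atf6, Ern1 and Eif2ak3, without overlap.

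After 21 h of Cis, Creb3 stood first in footprints at 42.8 ± 3.10 RPKM, above Xbp1 at 27.0 ± 2.97. Atf6 had moved to 11.7 ± 1.46 RPKM and overlapped Atf6b at 14.1 ± 2.24. Ern1 (6.76 ± 0.392) and Eif2ak3 (2.78 ± 0.778) kept the lowest places. In RNA with PBS, per length of the transcript, Mbtps1 (20.1 ± 0.267 RPKM) and Xbp1 (20.1 ± 3.98) led and overlapped each other, and Creb3l2 (2.05 ± 0.833) and Eif2ak3 (1.84 ± 0.447) were lowest and overlapped as well.

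**Figure D1:**
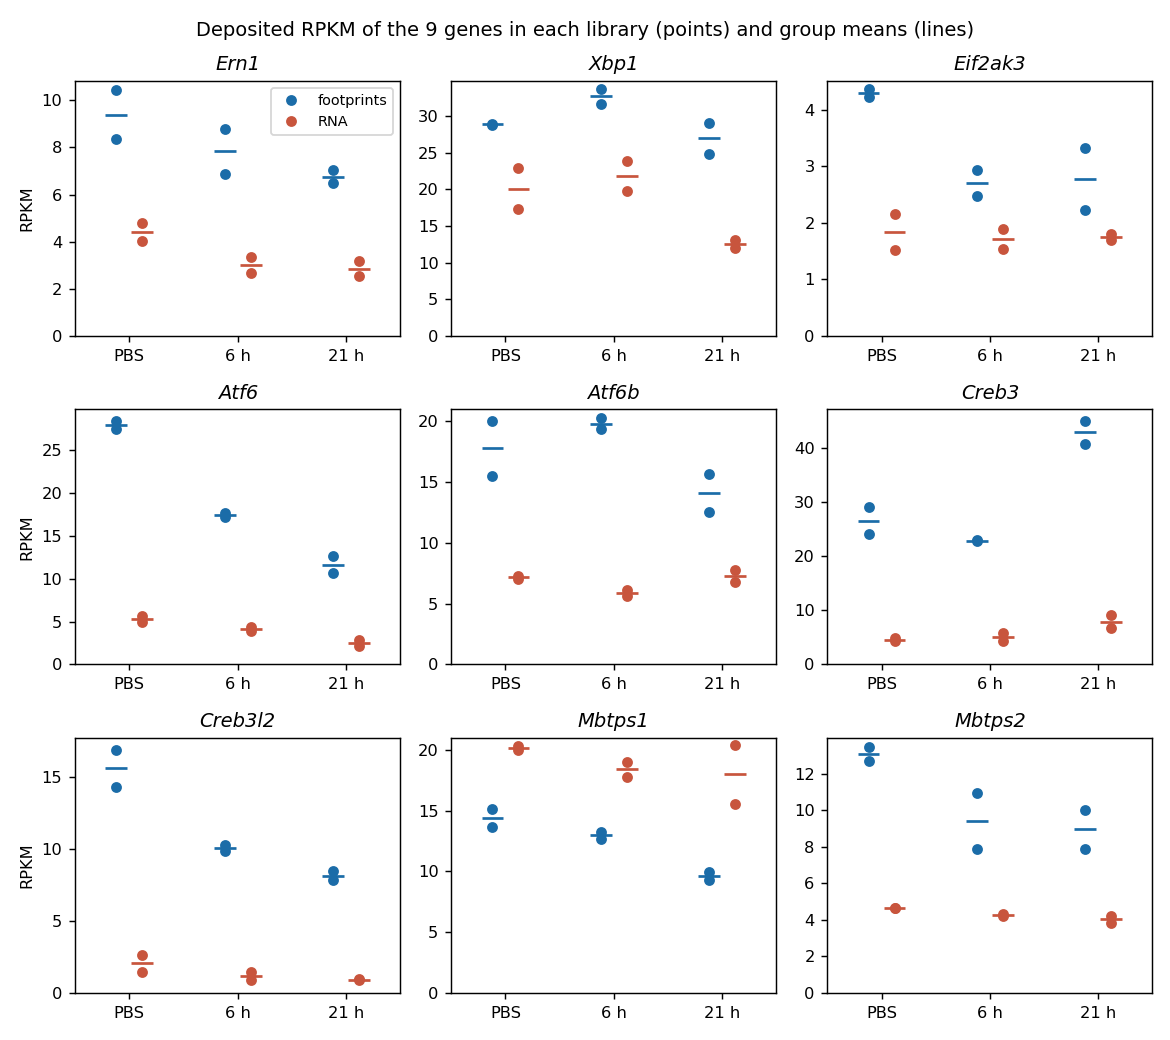
Deposited RPKM of each gene (vertical axes from 0, scaled separately per gene) in footprint libraries (blue) and RNA libraries (red) with PBS, Cis 6 h and Cis 21 h, where points are libraries and lines are means of 2. Atf6 footprints step down from 27.5 and 28.5 RPKM with PBS to 12.7 and 10.6 RPKM at 21 h, whereas those of Creb3 reach 40.6 and 45.0 RPKM.

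Against PBS, no gene of the 9 was called at 6 h in footprints (limma, adjusted p below 0.05), where 2.04% of the 10390 transcripts tested were. Unadjusted p-values were below 0.05 for 3 of the 9 (21.3% of all transcripts), and scaled RPKM did not overlap PBS for 7 of the 9 (54.3% of all). At 21 h, 4 of the 9 were called, 3 lower and 1 higher, beside 39.1% of all transcripts (20.2% lower, 18.9% higher). Scaled RPKM at 21 h did not overlap PBS for any of the 9, with 8 lower and 1 higher, and this was so for 70.3% of all transcripts (35% lower, 35.4% higher). Their median log2 change was -0.26 at 6 h and -0.57 at 21 h, beside -0.01 and 0.01 over all transcripts. Between the time points, 2 of the 9 were called, 1 in each direction (30.7% of all).

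In RNA, none of the 9 was called at 6 h, and none of the 9459 transcripts tested was (0%). No RNA change of the 9 had an unadjusted p below 0.05 there, against 11.5% of all transcripts, and scaled RPKM did not overlap PBS for 4 of the 9 (44% of all). At 21 h, 2 of the 9 were lower (12.2% of all were lower, 23.8% called in either direction), and 5 of the 9 had an unadjusted p below 0.05 (36.9% of all). Scaled RPKM did not overlap PBS for 7 of the 9, 6 lower and 1 higher (63.9% of all). The median RNA change of the 9 was -0.06 at 6 h and -0.27 at 21 h, beside -0.01 and 0.02 over all. From 6 h to 21 h, 1 of the 9 was called in RNA (15.7% of all). All comparisons against PBS share the same PBS libraries.

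**Figure D2:**
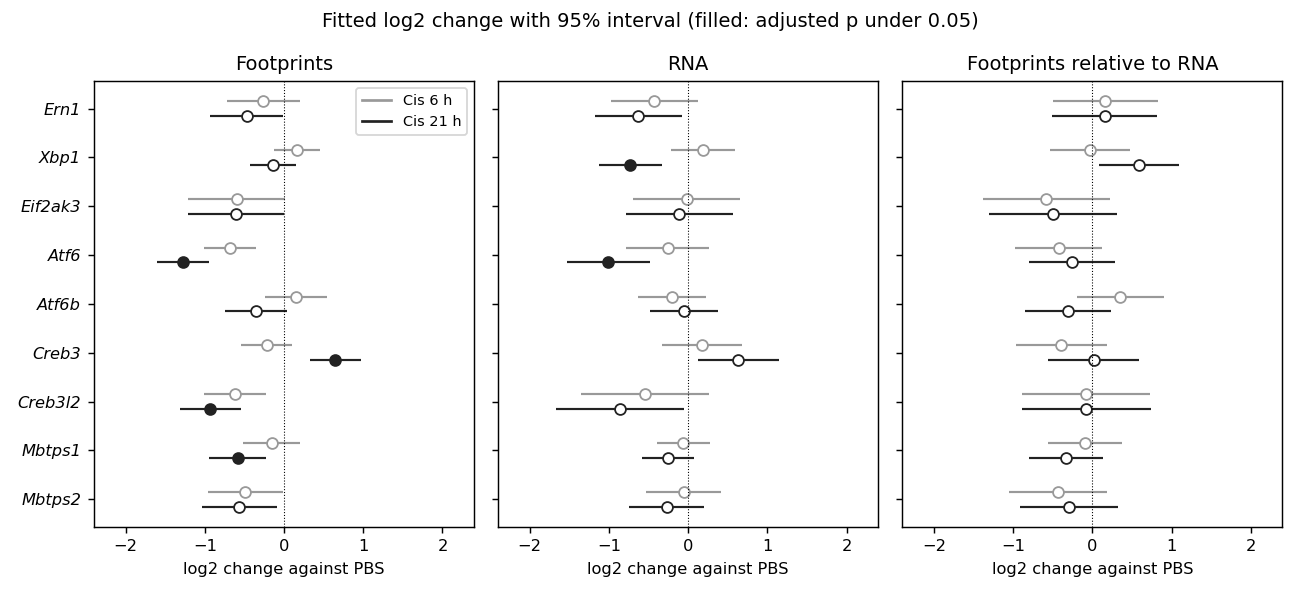
Fitted log2 change against PBS (horizontal axis) of the 9 genes in footprints, RNA and footprints relative to RNA after 6 h (grey) and 21 h (black) of Cis, where bars are 95% intervals and filled points have an adjusted p below 0.05. Filled points are those of Atf6, Creb3, Creb3l2 and Mbtps1 in footprints and of Atf6 and Xbp1 in RNA, all at 21 h.

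Ern1, whose product is both a kinase and an endoribonuclease, was lower after Cis in both assays without passing the test. Its footprints were 10.4 and 8.34 RPKM with PBS, 8.80 and 6.87 RPKM at 6 h, and 6.48 and 7.03 RPKM at 21 h. Both libraries at 21 h lay below both PBS libraries, and 6 h overlapped PBS. The log2 change in footprints was -0.26 (SE 0.20, adjusted p = 0.498) at 6 h and -0.47 (SE 0.20, 95% interval -0.93 to -0.01, adjusted p = 0.0956) at 21 h. Its RNA measured 4.03 and 4.81 RPKM with PBS, 2.68 and 3.37 RPKM at 6 h, and 2.53 and 3.17 RPKM at 21 h, so that PBS was above both times in every library. The RNA log2 change was -0.43 (SE 0.25, adjusted p = 0.542) at 6 h and -0.63 (SE 0.25, 95% interval -1.18 to -0.08, adjusted p = 0.0938) at 21 h. With voom weights on the recovered reads in place of log2(RPKM + 0.5), Ern1 was called lower at 21 h in footprints (-0.51, adjusted p = 0.0283) and in RNA (-0.73, adjusted p = 0.00841). Voom was the only alternative that called it, of 16 in footprints and 15 in RNA. The share of all transcripts that voom called at 21 h is not given.

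Xbp1 encodes the transcription factor that IRE1α activates by splicing, and passed the test in RNA but not in footprints. Footprints were 28.8 and 28.9 RPKM with PBS, 33.7 and 31.7 RPKM at 6 h, and 24.9 and 29.1 RPKM at 21 h. Values at 21 h spanned the PBS values before scaling and lay below them after, and those at 6 h lay above them. The log2 change in footprints was 0.16 (SE 0.13, adjusted p = 0.508) at 6 h and -0.14 (SE 0.13, adjusted p = 0.423) at 21 h. RNA measured 22.9 and 17.3 RPKM with PBS, 23.9 and 19.8 RPKM at 6 h, and 13.1 and 12.0 RPKM at 21 h, the lowest of the 6 libraries. At 21 h Xbp1 RNA had fallen by a log2 value of 0.73 (SE 0.18, adjusted p = 0.0172), to 0.603 of its PBS level. It also fell between 6 h and 21 h, by 0.92 (SE 0.18, adjusted p = 0.00945). The fall against PBS was lost without RNA PBS replicate 1 (-0.52, adjusted p = 0.134) or 21 h replicate 2 (-0.63, adjusted p = 0.0898). That against 6 h was lost without 6 h replicate 1 (-0.79, adjusted p = 0.0568) or 21 h replicate 2 (-0.83, adjusted p = 0.0553). Neither passed when eBayes was run without its trend (adjusted p = 0.0625 against PBS and 0.0505 against 6 h). Its deposited model has 371 codons, the frame of the spliced form, and covers no untranslated sequence. Gene totals do not separate spliced from unspliced Xbp1.

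Eif2ak3 encodes PERK, the sensor that phosphorylates eIF2α, and was the scarcest of the 9 in footprints. Its footprints were 4.37 and 4.24 RPKM with PBS, 2.93 and 2.48 RPKM at 6 h, and 3.33 and 2.23 RPKM at 21 h. Every treated library was below every PBS library. The log2 change was -0.60 at both times (SE 0.27; adjusted p = 0.240 at 6 h and 0.105 at 21 h). The value at 21 h was -0.35 without 21 h replicate 2 and -0.38 with quantile scaling. RNA measured 2.16 and 1.53 RPKM with PBS, 1.90 and 1.54 RPKM at 6 h, and 1.81 and 1.70 RPKM at 21 h, and the 3 groups overlapped. Its RNA change was -0.02 (95% interval -0.70 to 0.66) at 6 h and -0.11 (-0.79 to 0.57) at 21 h, so a fall of the size seen in footprints lies within both intervals. Only 16 to 24 RNA reads per library came from Eif2ak3. With voom weights, alone among 15 alternatives, its footprints were called lower at 21 h (adjusted p = 0.0320).

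Atf6, a sensor that becomes a transcription factor once cut, fell in both assays at 21 h, where it had the lowest fitted change of the 9 in each. Its footprints were 27.5 and 28.5 RPKM with PBS, 17.7 and 17.2 RPKM at 6 h, and 12.7 and 10.6 RPKM at 21 h. The 3 groups did not overlap and stood in the order of time. At 6 h the log2 change in footprints was -0.68 (SE 0.14, 95% interval -1.01 to -0.36, adjusted p = 0.0527), and 7 of 16 alternatives passed the test. By 21 h footprints had fallen by 1.27 (SE 0.14, adjusted p = 0.000324), to 0.415 of the PBS level, and the call held in all 16 alternatives run (-1.38 to -1.14). Footprints also fell between 6 h and 21 h, by 0.59 (SE 0.14, adjusted p = 0.0169). This last call was lost without 6 h replicate 1 (adjusted p = 0.0821), 6 h replicate 2 (0.0739) or 21 h replicate 2 (0.0698).

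Atf6 RNA was 4.93 and 5.71 RPKM with PBS, 3.89 and 4.42 RPKM at 6 h, and 2.19 and 2.91 RPKM at 21 h. Again the groups did not overlap and ordered by time. RNA changed by -0.26 (SE 0.23, adjusted p = 0.710) at 6 h and fell by 1.01 (SE 0.23, adjusted p = 0.0131) at 21 h. Without RNA PBS replicate 1 (adjusted p = 0.0558), PBS replicate 2 (0.0876) or 21 h replicate 1 (0.0665) the call was lost, with changes of -1.10, -0.93 and -0.87.

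Atf6b, the paralog of Atf6, did not pass the test in any comparison. Its footprints were 20.1 and 15.5 RPKM with PBS, 20.2 and 19.4 RPKM at 6 h, and 15.7 and 12.5 RPKM at 21 h. At 21 h the upper library stood just above the lower PBS library before scaling and below it after. The log2 change was 0.15 (SE 0.17) at 6 h and -0.36 (SE 0.17, 95% interval -0.75 to 0.03, adjusted p = 0.131) at 21 h. RNA measured 7.02 and 7.29 RPKM with PBS, 6.09 and 5.61 RPKM at 6 h, and 7.79 and 6.82 RPKM at 21 h, a change of -0.05 (95% interval -0.48 to 0.37) by 21 h. From 6 h to 21 h its footprints changed by -0.50 (SE 0.17, adjusted p = 0.0544), which passed at a minimum of 5 RPKM (adjusted p = 0.0475), with voom weights (0.0142) and without 21 h replicate 1 (-0.66, adjusted p = 0.0408).

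Creb3, an ER-anchored factor named for its likeness to CREB, was the only one of the 9 called higher. Its footprints were 24.0 and 29.1 RPKM with PBS, 22.9 and 22.8 RPKM at 6 h, and 40.6 and 45.0 RPKM at 21 h. Both 21 h libraries stood above all others. On the log2 scale, footprints rose by 0.65 (SE 0.14, 1.57-fold, adjusted p = 0.00685) at 21 h against PBS and by 0.87 (SE 0.14, 1.82-fold, adjusted p = 0.00281) against 6 h, and both calls held in all 16 alternatives run. At 6 h the change was -0.22 (SE 0.14, adjusted p = 0.404). RNA was 4.36 and 4.83 RPKM with PBS, 5.82 and 4.29 RPKM at 6 h, and 6.73 and 9.08 RPKM at 21 h, with 21 h above the rest. Its RNA change at 21 h was 0.63 (SE 0.23, 95% interval 0.12 to 1.14, adjusted p = 0.0734), on 12 to 23 reads per library.

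Creb3l2, a related factor with a role in secretory capacity, moved the opposite way. Its footprints were 14.3 and 16.9 RPKM with PBS, 10.2 and 9.86 RPKM at 6 h, and 7.81 and 8.43 RPKM at 21 h, without overlap among the groups. The log2 change in footprints was -0.62 (SE 0.17, adjusted p = 0.0951) at 6 h. At 21 h footprints fell by 0.93 (SE 0.17, adjusted p = 0.00308), to 0.525 of PBS, in all 16 alternatives run (-1.07 to -0.80). RNA was 2.64 and 1.46 RPKM with PBS, 1.42 and 0.917 RPKM at 6 h, and 0.970 and 0.878 RPKM at 21 h. The PBS libraries differed from each other more than the treated ones, and the RNA change at 21 h was -0.86 (SE 0.36, adjusted p = 0.117), on 13 to 46 reads per library. It was -0.51 without PBS replicate 1 and -1.21 without PBS replicate 2. With voom weights, alone among 15 alternatives, it was called lower (-1.10, adjusted p = 0.0147).

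The site proteases cut ATF6, the CREB3 family and the sterol-regulated SREBP factors, site-1 first and site-2 second. Mbtps1 footprints were 13.6 and 15.1 RPKM with PBS, 13.2 and 12.7 RPKM at 6 h, and 9.28 and 9.98 RPKM at 21 h. Both 21 h libraries were the lowest. Footprints of Mbtps1 changed by -0.16 (SE 0.16, adjusted p = 0.609) at 6 h and fell by 0.59 (SE 0.16, adjusted p = 0.0175) at 21 h, to 0.666 of PBS. The call was lost without footprint PBS replicate 2 (-0.50, adjusted p = 0.112) or 21 h replicate 1 (-0.53, adjusted p = 0.0615). Mbtps1 RNA measured 20.3 and 19.9 RPKM with PBS, 17.8 and 19.0 RPKM at 6 h, and 15.5 and 20.4 RPKM at 21 h, which overlapped. Its RNA change at 21 h was -0.25 (SE 0.15, adjusted p = 0.248).

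Mbtps2 footprints were 12.7 and 13.5 RPKM with PBS, 7.86 and 10.9 RPKM at 6 h, and 7.90 and 10.01 RPKM at 21 h. All 4 treated libraries lay under PBS. The log2 change was -0.49 (SE 0.21, adjusted p = 0.226) at 6 h and -0.57 (SE 0.21, 95% interval -1.04 to -0.09, adjusted p = 0.0604) at 21 h, close to that of Mbtps1. Its RNA was 4.66 and 4.67 RPKM with PBS, 4.20 and 4.33 RPKM at 6 h, and 3.85 and 4.19 RPKM at 21 h, a change of -0.27 (SE 0.21, adjusted p = 0.396). Mbtps2 footprints were called lower at 21 h with voom weights (adjusted p = 0.0292) and with a replicate block (adjusted p = 0.0413). No other of the 16 alternatives called them.

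The arms were then set against one another as log2 ratios of pairs of genes within each library. With 7 pairs in 6 comparisons (42 in all), an exact two-sided permutation test of 2 libraries against 2 cannot give a p below 0.333. No adjusted value was below 0.5, so the ratios are given with their size and SE. The SE was combined from the separate fits of the 2 genes as if they were independent. It did not use the pairing of genes within a library, so it does not measure the spread of the ratios. The footprint log2 ratio of Ern1 to Atf6 averaged -1.54 with PBS, -1.11 at 6 h and -0.74 at 21 h, a difference of 0.80 (SE 0.25) between 21 h and PBS. That of Eif2ak3 to Atf6 differed by 0.67 (SE 0.30), and both ratios were higher in each library at 21 h than with PBS. For Ern1 to Eif2ak3 the difference was 0.13 (SE 0.33), with overlapping libraries. In RNA at 21 h, the difference relative to Atf6 was 0.38 (SE 0.34) for Ern1 and 0.90 (SE 0.38) for Eif2ak3.

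Within the paralog and partner pairs, Creb3 to Creb3l2 showed the largest shift of the 42. Its footprint log2 ratio was 0.73 and 0.77 with PBS, 1.13 and 1.17 at 6 h, and 2.31 and 2.35 at 21 h, a difference of 1.58 (SE 0.22). The RNA ratio of the pair differed by 1.49 (SE 0.43) at 21 h. Atf6 to Atf6b went from 0.45 and 0.85 with PBS to -0.19 and -0.17 at 6 h and -0.30 and -0.23 at 21 h in footprints, a difference of -0.83 (SE 0.22) at 6 h and -0.91 (SE 0.22) at 21 h, whereas in RNA it was -0.05 (SE 0.30) at 6 h and -0.96 (SE 0.30) at 21 h. Mbtps1 to Mbtps2 differed by -0.02 (SE 0.26) in footprints and 0.01 (SE 0.26) in RNA at 21 h. Ern1 to Xbp1 changed by -0.34 (SE 0.24) in footprints and 0.10 (SE 0.31) in RNA.

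Summing the footprint RPKM of the 3 sensors, Atf6 made up 67.2% ± 3.03 in PBS libraries, 62.4% ± 3.28 after 6 h and 54.9% ± 2.10 after 21 h. The share of Ern1 was 22.5% ± 3.03, 27.9% ± 2.84 and 32.1% ± 4.64 in the same order. Eif2ak3 supplied 10.3% with PBS in both libraries, 9.67% ± 0.440 at 6 h and 13.0% ± 2.54 at 21 h. Atf6 thus still held the largest share of sensor footprints at 21 h. In RNA, its share was 45.9% ± 2.15 with PBS and 46.7% ± 1.05 at 6 h, and at 21 h (35.5% ± 2.71) Ern1 held more (39.8% ± 1.41).

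**Figure D3:**
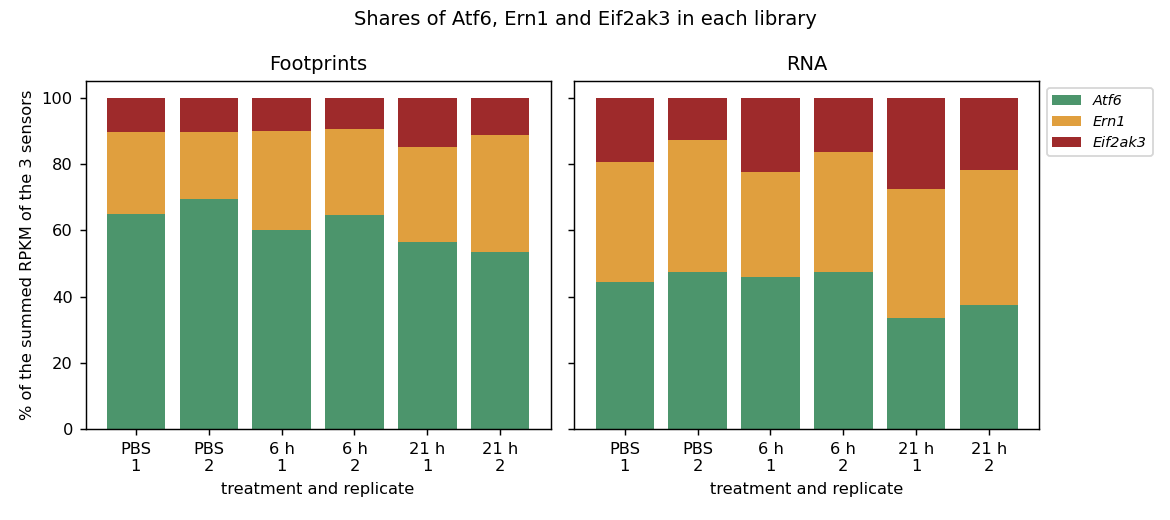
Share of Atf6, Ern1 and Eif2ak3 in the summed RPKM of the 3 sensors (vertical axis, percent) in each footprint and RNA library. The Atf6 share is 65.0% and 69.3% in the PBS footprint libraries and 56.4% and 53.4% at 21 h.

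Translational efficiency (TE), footprint RPKM over RNA RPKM, was formed by replicate number, which pairs libraries by name only. With PBS, Mbtps1 had the lowest TE of the 9 at 0.714 ± 0.0605, which lay at percentile 2.73 of 9309 transcripts, whose median was 3.44. Xbp1 (1.46 ± 0.293), Ern1 (2.16 ± 0.601), Eif2ak3 (2.4 ± 0.531), Atf6b (2.49 ± 0.515) and Mbtps2 (2.80 ± 0.113) were also below the median. Atf6 (5.28 ± 0.422), Creb3 (5.76 ± 0.362) and Creb3l2 (8.49 ± 4.36) were above it. The site proteases, which act in sequence, thus differed in TE with no overlap at any time. The models of Xbp1 and Creb3 carry no untranslated bases and the others do, RNA RPKM is divided by transcript length, and the part of the models in these differences was not tested. The RPKM denominator of each RNA library includes the reads of Lars2, Tmem38b and Mettl26. Without these 3 transcripts, an alternative added after the data were seen, the TE of Mbtps1 with PBS was 0.327 ± 0.0317 and that of Creb3l2 3.90 ± 2.04, while the order of genes within a library cannot change.

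No TE change of the 9 was called at 6 h (0% of 9312 transcripts) or at 21 h (0.408%), and voom gave 0 as well. At an unadjusted p below 0.05 there were 0 of the 9 at 6 h (7.65% of all) and 1, Xbp1, at 21 h (12.7% of all). For Ern1 the log2 change in TE was 0.16 at both times (SE 0.30), with 95% intervals of -0.50 to 0.83 at 6 h and -0.51 to 0.82 at 21 h. Its TE was 2.58 and 1.73 with PBS, 3.28 and 2.04 at 6 h, and 2.56 and 2.22 at 21 h, which overlapped throughout. Xbp1 had the largest TE change of the 9 at 21 h, 0.59 (SE 0.23, 95% interval 0.08 to 1.10, adjusted p = 0.326), from 1.26 and 1.67 with PBS to 1.90 and 2.42. The TE of Xbp1 at 21 h stood above PBS for both numbers, with lower RNA and footprints near PBS. Atf6 changed in TE by -0.26 (95% interval -0.81 to 0.29), Creb3 by 0.02 (-0.56 to 0.59), and Creb3l2 by -0.07 (-0.88 to 0.74). Eif2ak3 had a TE change of -0.58 (95% interval -1.39 to 0.23) at 6 h and -0.49 (-1.30 to 0.31) at 21 h. Differences within these intervals were not detected with 2 libraries per group and assay.

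**Figure D4:**
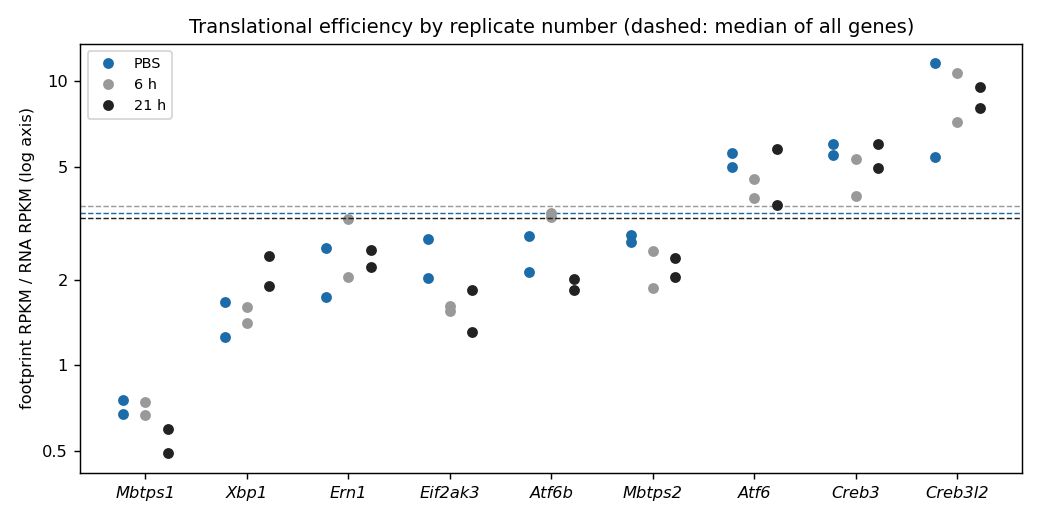
TE (vertical log axis, footprint RPKM over RNA RPKM) of the 9 genes, ordered by their mean with PBS, for each replicate number with PBS (blue), Cis 6 h (grey) and Cis 21 h (black), where dashed lines are the median of all transcripts in each group. Mbtps1 lies lowest, at 0.489 to 0.756, and Creb3l2 has the widest PBS pair, 5.41 and 11.6.

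The 9 genes differ widely in the length of genome they occupy, taken as the RefSeq gene span. Atf6 spans 164 kb, Creb3l2 115 kb, Ern1 90.2 kb, Eif2ak3 60.8 kb, Mbtps2 50.9 kb and Mbtps1 50.7 kb, whereas Atf6b spans 7.93 kb, Xbp1 5.35 kb and Creb3 4.40 kb. The longest gene had the lowest footprint change at 21 h and the shortest had the highest. Across the 9, Spearman's rho between span and log2 change at 21 h was -0.88 in footprints, -0.70 in RNA and -0.13 in TE. Over all transcripts with a span it was -0.49 in footprints (n = 10331), -0.37 in RNA (n = 9400) and -0.23 in TE (n = 9260). At 6 h the members' values were -0.85 in footprints and -0.77 in RNA, beside -0.44 and -0.34 over all. The points share libraries, and genes are not independent replicates.

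The 7 pathway lists were chosen with earlier results of these data known, and these libraries do not measure the activity of PERK. From its blots, the study reports that PERK protein and phosphorylated eIF2α were largely unaffected by chemotherapy. Among these lists, the PERK-ATF4 list held the largest share of calls at 21 h. Of its 18 genes, 13 rose and 2 fell in footprints (83.3% called, against 39.1% of all transcripts), with a median log2 change of 0.83. Ddit3, the proapoptotic factor CHOP, rose by 3.59 (SE 0.12, adjusted p = 1.11e-06), and Atf3, a stress-induced factor, by 3.65 (SE 0.11, adjusted p = 1.11e-06). Atf4 itself rose by 1.94 (SE 0.11) and Ppp1r15a, which directs eIF2α dephosphorylation, by 2.93 (SE 0.19). In RNA 12 rose and 1 fell (23.8% of all called), and Atf4 was the only gene of the list called in TE, 0.95 higher (SE 0.16, adjusted p = 0.0362). That TE call was lost in 12 of 22 alternatives, 8 of them leaving out a library, and also without the trend of eBayes, with the replicate block, without the filter and with only the 2 groups (0.84 to 1.05, adjusted p up to 0.330). At 6 h, Atf3 (0.98, SE 0.11) and Ddit3 (0.70, SE 0.12) rose in footprints, and Eif2s1, which encodes eIF2α, fell by 0.47 (SE 0.08) before rising above PBS by 0.31 (SE 0.08, adjusted p = 0.0114) at 21 h. Of 16 alternatives, the calls at 6 h were lost in 4 for Atf3, 8 for Ddit3 and 7 for Eif2s1, among them, for all 3 genes, eBayes without the trend and leaving out 6 h replicate 1, 6 h replicate 2 or PBS replicate 1. Their adjusted p then reached at most 0.0768, 0.219 and 0.217. Eif2ak3, the gene of PERK itself, was not called at either time in this fit. Of the other 3 eIF2α kinases, Eif2ak2 (PKR) fell in footprints at 21 h by 0.30 (SE 0.09, adjusted p = 0.0327), a call lost in 9 of 16 alternatives. Eif2ak1 and Eif2ak4 were not called (33.3% of the 3 called, against 39.1% of all transcripts).

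Of 14 measured ATF6 targets, 2 rose and 7 fell in footprints at 21 h (64.3% called, against 39.1% of all transcripts, 18.9% higher and 20.2% lower; median -0.27). Pdia6 and Pdia4, both disulfide isomerases, fell by 1.02 (SE 0.11) and 0.72 (SE 0.09), and Hsp90b1, the ER chaperone GRP94, by 1.01 (SE 0.12), whereas Ddit3, also on the PERK-ATF4 list, rose. In RNA 3 rose and 3 fell (23.8% of all called), among them Hspa5, the ER chaperone BiP, which rose by 0.63 (SE 0.11, adjusted p = 0.00323). Xbp1 is on this list and is 1 of the 9. Of 19 measured XBP1s targets, 4 rose and 3 fell in footprints (36.8% called, close to the 39.1% of all transcripts, median 0.02). The disulfide isomerase Pdia5 fell by 1.38 (SE 0.18) and the coat protein gene Sec24d by 0.86 (SE 0.16), while Syvn1, the ubiquitin ligase HRD1, rose by 1.01 (SE 0.20) and Sec23b by 0.53 (SE 0.11). In RNA 1 rose and 3 fell (21.1% called, against 23.8% of all), with Sec23b higher by 1.0 (SE 0.15) and Pdia5 and Sec24d each lower by 1.28 (SE 0.29 and 0.28). Of 15 alternatives, 2 lost the RNA call of Pdia5 (without PBS replicate 1 or 21 h replicate 2) and 2 that of Sec24d (without PBS replicate 2 or 21 h replicate 2).

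Of 18 regulators and partners of IRE1α, 3 rose and 6 fell in footprints at 21 h (50% called, against 39.1% of all transcripts, 18.9% higher and 20.2% lower; median -0.04). Map3k5, the kinase ASK1 that acts below IRE1α and Traf2, fell by 1.83 (SE 0.22), and Ufl1, an enzyme of protein UFMylation, by 1.44 (SE 0.20). Traf2, the adaptor bound by IRE1α, rose by 0.90 (SE 0.15). Pdia6, which also acts on IRE1α, is shared with the ATF6 list. Of 7 measured substrates of regulated IRE1α-dependent decay, none rose and 3 fell in footprints (42.9% called, median -0.28). Over all transcripts, 39.1% were called in either direction and 20.2% were lower. Col6a1 was lower by 1.28 (SE 0.11), Scara3 by 0.70 (SE 0.19) and Sparc by 0.33 (SE 0.09). RNA of these substrates at 21 h was called lower for 2 of 8 (25%, beside 23.8% of all called and 12.2% lower), Scara3 (-0.92, SE 0.24) and Col6a1 (-0.55, SE 0.16). Of 16 alternatives, 3 lost the footprint call of Scara3 and 3 that of Sparc, while 4 lost the RNA call of Scara3 and 7 that of Col6a1, including each RNA library of PBS and 21 h left out in turn for Col6a1 (-0.63 to -0.47, adjusted p up to 0.177). Bloc1s1, the substrate most used as a marker of this decay, was not called against PBS, and its RNA fell between 6 h and 21 h by 0.77 (SE 0.17, adjusted p = 0.0154), which was lost in 4 of 16 alternatives. Of 10 measured other substrates and handlers of the site proteases, 8 were not called in footprints at 21 h (20% called, against 39.1% of all transcripts). Srebf1, a regulator of lipid synthesis, rose by 0.56 (SE 0.16, lost in 3 of 16 alternatives). Gnptab, whose product site-1 protease cuts, fell by 1.14 (SE 0.20).

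**Figure D5:**
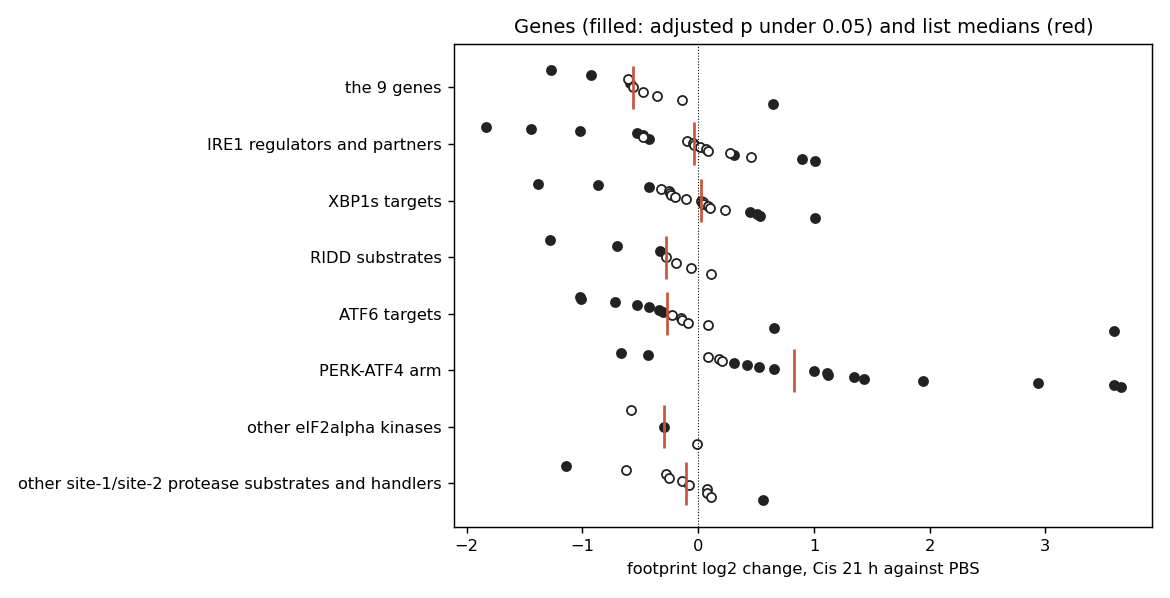
Footprint log2 change at Cis 21 h against PBS (horizontal axis) for the 9 genes and for each pathway list, where filled points have an adjusted p below 0.05 and red lines are medians. The PERK-ATF4 list lies to the right (median 0.83) and the 9 genes to the left (median -0.57), with Creb3 the single filled point on the right among the 9.

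Among 5611 transcripts with at least 5 RPKM in both assays, those most like Atf6 over the 12 libraries, each centred within its assay, were Wnk1 (Pearson's r 0.992), Cd2ap (0.985) and Ext1 (0.982). For Ern1 they were Pmepa1 (0.914), Cmip (0.905) and Tgfbr2 (0.904). Those most like Xbp1 were Actg1 (0.932), Mtln (0.923) and Atp5g2 (0.921), and those most like Eif2ak3 were Pik3r2 (0.919), Pls3 (0.868) and Ctdp1 (0.856). Within the 9, Atf6 was closest to Mbtps1 (0.875) and Ern1 to Atf6 (0.825), and Creb3 had negative values with each of the other 8 (-0.72 to -0.27). Atf6, Ern1 and Eif2ak3 were themselves below the 5 RPKM minimum in RNA on average, and Eif2ak3 had only 16 to 24 RNA reads per library. The correlations describe 12 libraries that share treatment groups, with no test.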

How the data were processed

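Ribosome profiling and RNA-seq libraries of KPC cells (12 in all) were grouped by their labels. The authors deposited RPKM values per library and transcript. Their processing notes name cutadapt, STAR and GRCm39, and the counter and the annotation are not given in the sources used here. Multiplied by length (coding sequence for footprints, transcript for RNA), the deposited RPKM were whole multiples of the value of 1 read for 100% of values, within 0.02 read, which gave reads and depth. Unlisted transcripts were set to 0.

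Median-of-ratios factors put the libraries of an assay on a common scale. A filter required a mean of 1 RPKM or more after scaling, and limma 3.58.1 in R 4.3.3 (lmFit, then eBayes with a trend) modelled log2(RPKM + 0.5) over the 3 groups of an assay. A log2 change on this scale understates that of low genes. TE was the interaction of assay and treatment over 12 libraries. All p-values are two-sided and were adjusted by Benjamini-Hochberg over all transcripts, with 0.05 as threshold. Tables and figures were made with Python 3.11.15, pandas 2.3.3 and matplotlib 3.10.9. On simulated data with log2 changes of 1 at 21 h, 78.5% of 200 changed transcripts were called in footprints, 33.9% of 192 in RNA and 15.5% of 193 in TE. No other transcript was changed, of 10390 tested in footprints, and all had the same fixed spread. In the data 39.1% were called in footprints at 21 h, so these shares need not hold for the comparisons made here.

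The 9 genes were chosen by symbol, and named genes beside them were, from each of 7 pathway lists, up to 4 called genes per comparison with the lowest adjusted p, and the 3 most similar transcripts for Ern1, Xbp1, Eif2ak3 and Atf6. Eif2ak1 and Eif2ak4 were named outside this rule, with their values seen, to complete a list of 3. Members and lists were chosen with earlier results of these data known. Alternatives were other pseudocounts (0.1 and 1), RPKM minimums (none and 5), scalings (none and quantile), eBayes without a trend, voom on recovered reads, only the 2 groups compared, a replicate block, and leaving out each library. Differences between the 2 replicates of a group were little correlated between groups or assays (correlation -0.08 to 0.07 over 5611 transcripts). Whether libraries with the same number share a culture or lysate is not labelled, which these correlations cannot settle. The main TE fit did not pair libraries. Deposited replicates differed beyond counting noise (chi-square per degree of freedom 1.45 to 3.97). Reads carry no molecular identifiers used here. Read numbers cover counting error only. Promoter windows and gene spans came from RefSeq tables of GRCm38.p6, matched by symbol, and the spans were used as lengths only.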

Additional observations from a re-analysis of the deposited data

Results flagged for a closer look

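In 3 cases the effect differed between the 2 treatment times by a direct test of 21 h against 6 h (limma, two-sided, adjusted over all transcripts of the assay), which equals the difference of the 2 contrasts against their shared PBS libraries. Atf6 footprints differed by -0.59 (adjusted p = 0.0169), lower at 21 h in both libraries. Creb3 footprints differed by 0.87 (adjusted p = 0.00281), higher at 21 h in both libraries. Xbp1 RNA differed by -0.92 (adjusted p = 0.00945), lower at 21 h in both libraries. These were 2 of the 9 in footprints, beside 30.7% of all transcripts, and 1 of the 9 in RNA, beside 15.7%. The calls of Atf6 and Xbp1 were each lost in 3 of 16 alternatives. Other genes of the 9 did not pass this test, which does not show that their effects at 6 h and 21 h were equal. Time under Cis and time in culture cannot be told apart in this comparison. Groups of 2 libraries were too small for a check of single outlying values.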

How the results depend on the processing

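Of the members' log2 changes under the alternatives, 1157 kept their direction and side of the threshold, 20 gained the call, 14 lost it and 41 changed sign, none of the last being a call. The cause of these changes was not tested. In footprints the calls of Atf6, Creb3 and Creb3l2 at 21 h against PBS and of Creb3 against 6 h held in all 16 alternatives. Without scaling, the median of all RNA changes from 6 h to 21 h was 0.15 in place of 0.01. RNA values of the 9 rest on fewer reads (408 to 705 per library) than their footprints (777 to 1499), and depth was not separated from the spread of 2 libraries.

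At 6 h, footprint calls over all transcripts numbered 212, and became 17 without the filter, 341 at RPKM of at least 5, 0 without the trend, 1276 with voom and 456 with only the 2 groups compared; leaving out a library gave 0 to 398. Of the 9, 1 was called (Atf6) with pseudocount 1, at RPKM of at least 5, with quantile scaling and with only the 2 groups, 2 with voom (Creb3l2 added), and 0 to 1 without a library. At 21 h voom called 7 of the 9, and 4 between the times. For footprints and RNA, voom calls over all transcripts at 21 h and between the times are not given. Its member counts in those comparisons thus have no overall share beside them. Leaving out a library gave 2807 to 3757 transcripts and 3 to 4 members at 21 h, and 1602 to 2986 transcripts and 1 to 3 members between the times. In RNA at 6 h quantile scaling called 1 transcript and voom 228, with 0 to 1 without a library and 0 members throughout. In RNA at 21 h, 1 member (Xbp1) was called at RPKM of at least 5. Ern1, Eif2ak3, Atf6, Creb3l2 and Mbtps2 fell below that minimum in RNA and were not tested there, so Atf6 did not lose its call. In the same comparison, 1 member (Atf6) was called without the trend and 4 with voom. For the minimum of 5 RPKM and without the trend, its calls over all transcripts are not given here. With a library left out, 1059 to 2310 transcripts and 0 to 2 members were called in RNA at 21 h. Between the times in RNA, 918 transcripts were called without the filter and 790 without the trend, 0 members without the trend and 2 with voom, and leaving out a library gave 684 to 1201 transcripts and 0 to 1 member. In TE at 6 h, pseudocount 0.1 called 1 transcript and voom 14. In TE at 21 h, calls went from 38 to 8 without the filter, 67 at RPKM of at least 5, 0 without the trend, 152 with voom and 3 with only the 2 groups, with 2 to 43 without a library.

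With the replicate block, 37 transcripts were called in footprints at 6 h and 0 in TE at 21 h, and Mbtps2 footprints at 21 h (-0.57, adjusted p = 0.0413) and Atf6b footprints from 6 h to 21 h (-0.50, adjusted p = 0.0442) passed; no other call of the 9 changed. Whether the numbers pair the libraries is not labelled.

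Values that changed sign were at most 0.15 in size with all libraries kept. With a library left out they reached 0.28 (Creb3l2 TE). Without scaling they were 0.014 and 0.027 (Eif2ak3 footprints and RNA, 21 h against 6 h), 0.025 (Atf6b RNA, 21 h), 0.051 (Xbp1 TE, 6 h) and -0.026 (Creb3 TE, 21 h). With quantile scaling they were 0.15 and 0.012 (Eif2ak3 footprints and RNA, 21 h against 6 h), 0.045 and 0.058 (Eif2ak3 RNA, 6 h and 21 h) and -0.0060 (Creb3 TE, 21 h). With voom they were 0.0022 (Eif2ak3 RNA, 6 h), 0.048 and 0.15 (Creb3l2 TE, 6 h and 21 h), and with pseudocount 0.1 they were 0.031 and 0.13 (Creb3l2 TE) and -0.017 (Creb3 TE, 21 h). Leaving out a library moved across 0 the log2 changes of Atf6b footprints at 6 h (-0.019 to 0.30), of Eif2ak3 and Mbtps2 footprints from 6 h to 21 h (-0.25 to 0.24 and -0.30 to 0.15), and of RNA at 6 h for Xbp1 (-0.027 to 0.40), Eif2ak3 (-0.23 to 0.19) and Creb3 (-0.030 to 0.38). The same held for RNA of Eif2ak3 at 21 h (-0.32 to 0.094) and between the times (-0.22 to 0.029), RNA of Atf6b at 21 h (-0.18 to 0.072), TE at 6 h of Ern1 (-0.0019 to 0.33), Xbp1 (-0.24 to 0.19) and Creb3l2 (-0.43 to 0.28), and TE at 21 h of Creb3 (-0.15 to 0.18) and Creb3l2 (-0.42 to 0.28).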
